A study of Mus musculus with 8 samples.

Results

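The replication-dependent histone genes and Slbp, the gene of the protein that binds their messages, were followed in mouse leukemias. Members were taken by name from the deposited gene table: every row whose name starts with Hist1h, Hist2h, Hist3h or Hist4h, plus Slbp. These were 31 histone rows and Slbp, 32 of 16419 genes. RNA of leukemia cells from 8 mice was measured on exon arrays, 1 array per mouse, with no technical replicates. The 4 TCL1 mice carried a TCL1 transgene under the immunoglobulin heavy chain enhancer (Eµ), and to this a ROR1 transgene was added in the 4 ROR1xTCL1 mice; the promoter of the ROR1 transgene, the strain and the age were not given in the sources used here. TCL1 is an oncogene whose expression in B cells gives these mice a leukemia used as a model of chronic lymphocytic leukemia, and ROR1 is a surface receptor that binds Wnt5a. All 8 leukemias thus share the TCL1 transgene, and no normal B cells were compared. The gene table names the genotype of each array but not its sample number, so its columns are called arrays a to d of each genotype. A second table, of single probe sets, carries sample numbers, and its columns are called replicates 1 to 4. No letter was matched to a number.

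Histones H2A, H2B, H3 and H4 form the core around which DNA is wound, and the linker histone H1 binds where DNA enters and leaves it. Cells need new histones when they copy their DNA, and the replication-dependent genes, most of them in clusters, are read mainly in S phase. Their messages end in a stem-loop in place of a poly(A) tail. SLBP binds this stem-loop and is needed for the processing, export and translation of the messages, and in dividing cells SLBP itself is made as S phase is entered and lost as it ends.

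RefSeq listed a start-site window for Slbp and for 24 of the histone members, from 250 bases before the start to 50 after it (assembly GRCm38.p6). The 250 bases before the start are shown for Slbp and for the gene of the brightest row in each of the H4, H2B, H1 and H2A classes. No probe set is annotated to the shown H4, H2B or H2A gene alone, so the signal of these rows cannot be assigned to the copies shown. Capitals mark every match, on either strand, to the letters TATAA or CCAAT, to the octamer ATTTGCAT or to the H1 motif AAACACA. Neighbouring capitals can be overlapping matches. Hist1h4d (H4c4) at chr13:23581318-23581567, Hist1h2bk (H2bc12) at chr13:22035571-22035820, Hist1h1c (H1f2) at chr13:23738557-23738806 and Hist1h2ab (H2ac4) at chr13:23750838-23751087 lie on the + strand. Slbp, at chr5:33652575-33652824, lies on the - strand and is written as that strand reads.
Hist1h4d: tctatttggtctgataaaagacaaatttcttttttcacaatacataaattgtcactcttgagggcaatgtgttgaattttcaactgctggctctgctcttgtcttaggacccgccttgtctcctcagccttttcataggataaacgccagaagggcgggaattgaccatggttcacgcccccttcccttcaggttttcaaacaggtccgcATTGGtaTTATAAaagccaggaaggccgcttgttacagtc
Hist1h2bk: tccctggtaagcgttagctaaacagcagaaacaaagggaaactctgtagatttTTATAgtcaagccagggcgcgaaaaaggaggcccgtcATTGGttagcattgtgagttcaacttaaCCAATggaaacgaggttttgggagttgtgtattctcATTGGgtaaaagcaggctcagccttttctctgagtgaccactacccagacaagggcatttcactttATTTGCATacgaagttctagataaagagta
Hist1h1c: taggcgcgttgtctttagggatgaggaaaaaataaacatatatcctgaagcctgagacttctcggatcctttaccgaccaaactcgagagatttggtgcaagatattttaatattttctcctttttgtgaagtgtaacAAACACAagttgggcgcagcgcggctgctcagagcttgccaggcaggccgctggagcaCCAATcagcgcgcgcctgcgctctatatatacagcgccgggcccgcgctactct
Hist1h2ab: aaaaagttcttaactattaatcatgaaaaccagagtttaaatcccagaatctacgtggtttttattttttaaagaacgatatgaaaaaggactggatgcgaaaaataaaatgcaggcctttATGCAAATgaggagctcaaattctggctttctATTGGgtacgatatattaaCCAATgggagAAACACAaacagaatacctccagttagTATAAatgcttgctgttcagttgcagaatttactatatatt
Slbp: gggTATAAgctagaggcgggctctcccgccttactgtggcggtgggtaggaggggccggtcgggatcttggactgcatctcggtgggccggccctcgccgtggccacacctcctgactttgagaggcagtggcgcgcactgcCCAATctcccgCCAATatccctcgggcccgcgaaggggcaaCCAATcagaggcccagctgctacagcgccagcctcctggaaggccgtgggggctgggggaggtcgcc

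Over the whole window of 300 bases, TATAA was found in 21 of 24 histone windows, which is 87.5%, against 25.5% of 27025 windows of all genes. CCAAT was found in 22 of 24 (91.7%, against 37.9% of all). The octamer ATTTGCAT was found in 9 of 24 (37.5%, against 1.75% of all), in 5 of 7 H2A and 4 of 7 H2B genes, and in 0 windows of the other classes. AAACACA, known from H1 promoters, was found in 4 of 5 H1 windows and in 7 of 24 histone windows in all (29.2%, against 7.14% of all). The Slbp window held the first pair of motifs but neither of the longer ones. These are matches of letters only, and no binding was measured.

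Histone rows were found at high and at low levels. Of the 31 histone rows, 18 had a mean over the 8 arrays above the median of all gene means (5.07 on the log2 scale) and are called expressed. Of these, 9 lay above the upper quartile (6.81) and are called bright. A further 7 lay between the lower quartile (3.61) and the median, and 6 lay under the lower quartile. By the same cuts 8209 of all 16419 genes are expressed and 4105 are bright, so the histone counts lay near the shares of all genes. Signals of different probes are not comparable as amounts of RNA, so these ranks only place a row within the array. At the boundaries, Hist3h2bb-ps (5.41), a pseudogene, was the dimmest expressed row and Hist2h2be (4.98) the next below. Hist3h2a (7.02) was the dimmest bright row, above Hist2h2aa1 (6.46), and Hist1h1t (3.67) and Hist1h2bp (2.80) stood on the 2 sides of the lower quartile. All 10 B cell markers measured were expressed, with a mean level of 9.89 to 10.1 on the TCL1 arrays and 9.90 to 10.2 on the ROR1xTCL1 arrays.

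**Figure D1:**
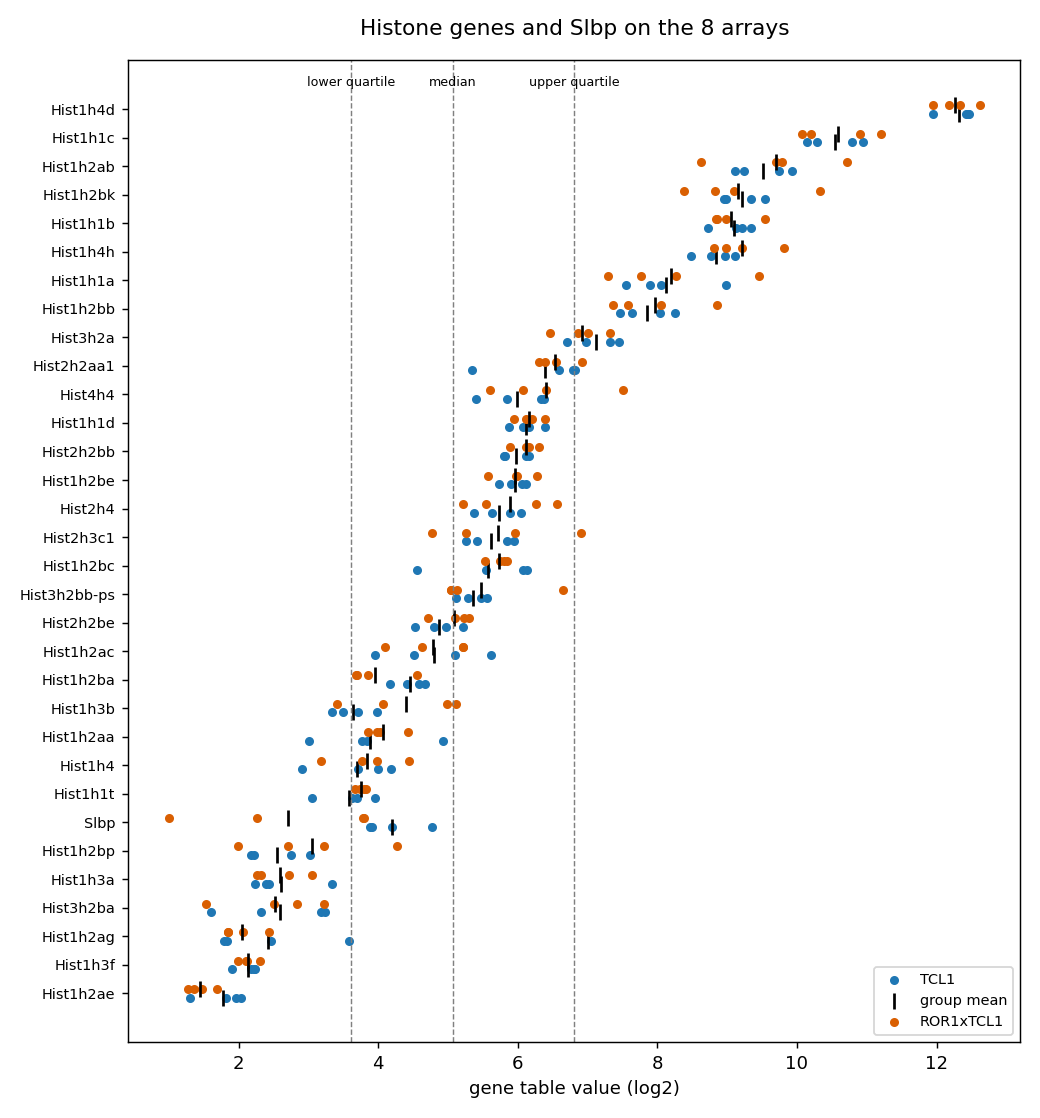
Value of each of the 31 histone rows and Slbp (horizontal axis, log2) on the 4 TCL1 arrays (blue) and the 4 ROR1xTCL1 arrays (orange), brightest row at the top. Black ticks are group means and dashed lines are the quartiles and the median of all gene means. The groups overlap for all 31 histone rows, and only Slbp is separated, at a low level.

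Among linker histones, 4 of 5 rows were expressed. Hist1h1c (H1.2), the brightest, read 10.78, 10.95, 10.14 and 10.29 on TCL1 arrays a to d and 11.21, 10.07, 10.20 and 10.90 on ROR1xTCL1 arrays a to d. Hist1h1a (H1.1) read 8.99, 8.06, 7.90 and 7.55 on the TCL1 arrays and 9.46, 7.30, 7.76 and 8.27 on the ROR1xTCL1 arrays. Both were highest on ROR1xTCL1 array a and lowest on ROR1xTCL1 array b, so that both extremes lay within the same genotype. Hist1h1b (H1.5) read 9.22, 9.13, 9.34 and 8.72 on the TCL1 arrays and 9.54, 8.85, 8.84 and 8.99 on the ROR1xTCL1 arrays. The row not expressed was Hist1h1t, the testis H1, at 3.67.

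Among core histone rows, 4 of 5 H4, 6 of 10 H2B, 3 of 7 H2A and 1 of 4 H3 rows were expressed. Hist1h4d (an H4 gene), the brightest member, read 12.42, 12.45, 12.47 and 11.95 on the TCL1 arrays and 12.62, 11.95, 12.34 and 12.18 on the ROR1xTCL1 arrays. Its whole range was 0.67 log2 units, the low arrays being TCL1 d and ROR1xTCL1 b. Hist1h4h, another H4 gene, read 8.98, 8.49, 9.11 and 8.76 on the TCL1 arrays and 9.82, 8.81, 8.98 and 9.21 on the ROR1xTCL1 arrays, which overlapped. Hist1h2bk (an H2B gene) read 9.55, 8.96, 9.34 and 8.99 on the TCL1 arrays and 10.33, 8.83, 8.39 and 9.10 on the ROR1xTCL1 arrays. The ROR1xTCL1 arrays thus held both the highest and the lowest value. Hist1h2ab (an H2A gene) read 9.93, 9.11, 9.24 and 9.75 on the TCL1 arrays and 10.72, 9.70, 8.62 and 9.79 on the ROR1xTCL1 arrays, again with both extremes in ROR1xTCL1. Hist1h2bb, an H2B gene, ranged from 7.36 on ROR1xTCL1 array c to 8.85 on ROR1xTCL1 array a. Hist3h2a, an H2A gene outside the main cluster, ranged from 6.47 on ROR1xTCL1 array c to 7.46 on TCL1 array c, and was the only bright row whose highest array was not ROR1xTCL1 array a.

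A dim row did not mean that the class was dim. Histone genes are near-identical copies, and many of their probe sets are annotated to several genes, up to 12, and cannot be assigned to single copies. This held for 30 of 31 H3 and 29 of 36 H4 probe sets, for 20 of 40 H2A and 33 of 66 H2B probe sets, and for none of the 20 H1 probe sets. Of the 12 rows that were not expressed and have annotated probe sets, 6 had a brightest probe set above 8. These 6 are not separate observations, since some rows share that probe set. It was 5078347 for both Hist1h2ac and Hist1h2ag, and 4859434 for both Hist1h3a and Hist1h3b. The row of Hist1h2ae (H2A) had a mean of 1.62, while probe set 4598206, annotated to this gene alone, had a mean of 12.96. The H3 class showed the same gap. The row of Hist1h3b (H3) read 3.50, 3.72, 3.98 and 3.34 on the TCL1 arrays and 4.99, 4.08, 3.41 and 5.12 on the ROR1xTCL1 arrays. Yet 22 of the 28 probe sets annotated to it and to other H3 genes lay above the median of all probe sets (3.59), and the brightest of them had a mean of 12.04. In the other direction, the row of Hist1h4d lay within a mean distance of 0.0099 of probe set 5487776, which is annotated to 12 H4 genes, when the 8 values of each were put in order of size. The sources used here do not say how gene rows were formed from probe sets.

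The 18 expressed histone genes were summarised by a score: each gene was centred on its own mean of 8 arrays, and the centred log2 values were averaged on each array. The score was 0.17, -0.11, -0.03 and -0.23 on TCL1 arrays a to d and 0.65, -0.20, -0.27 and 0.01 on ROR1xTCL1 arrays a to d. ROR1xTCL1 array a stood far above the other 7 arrays, and the ROR1xTCL1 arrays held both the highest and the lowest score. Of the 18 expressed genes, 13 were highest on ROR1xTCL1 array a, against 12.3% of all 8209 expressed genes, and 16 were above their own mean there. TCL1 array a was next, with 14 of 18 genes above their mean. The lowest values were spread over several arrays: 6 genes were lowest on ROR1xTCL1 array c, 5 on ROR1xTCL1 array b, 3 each on TCL1 arrays b and d, and 1 on TCL1 array c. The 9 bright genes had the same order at both ends, with scores from -0.43 on ROR1xTCL1 array c to 0.78 on ROR1xTCL1 array a.

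ROR1xTCL1 array a was also the highest of the 8 for the S phase list (0.38), the mitosis list (0.62) and a list of red cell precursor markers (1.85). All 11 erythroid markers measured, of 14 listed, were expressed. Their mean level ran from 6.90 to 8.04 on the TCL1 arrays and from 6.52 on array b to 9.37 on array a among the ROR1xTCL1 arrays. Across the 8 arrays the histone score and the erythroid score had a Pearson r of 0.85 and a Spearman rho of 0.60, but r was 0.17 without the 2 arrays farthest from the median histone score, TCL1 array a and ROR1xTCL1 array a. The score of 15 monocyte and macrophage markers, 12 of them expressed, was also high on these arrays, at 1.03 and 0.74, and its r with the histone score was 0.77, or 0.43 without the same 2 arrays. Their mean level ran from 5.22 to 7.01 on the TCL1 arrays and from 5.53 to 6.72 on the ROR1xTCL1 arrays. The score of 9 plasma cell markers, all expressed, had an r of 0.51 and a rho of 0.81 with the histone score, and an r of 0.75 without the 2 farthest arrays and 0.78 without ROR1xTCL1 array a. It was highest on ROR1xTCL1 array d (1.06), and the mean level of these markers ran from 7.25 to 8.62 on the TCL1 arrays and from 7.41 to 9.02 on the ROR1xTCL1 arrays. The score of 14 neutrophil markers, 12 of them expressed, was 2.64 on TCL1 array a but -0.18 on ROR1xTCL1 array a. Its r with the histone score was 0.32, or 0.77 without ROR1xTCL1 array a. The r was -0.19 for 12 T cell markers, or 0.69 without that array. For the 10 B cell markers it was -0.50, or -0.36 without it. The part of other cells in the histone score was not tested. In RNA from mixed cells, more dividing cells and more histone message per cell cannot be told apart.

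**Figure D2:**
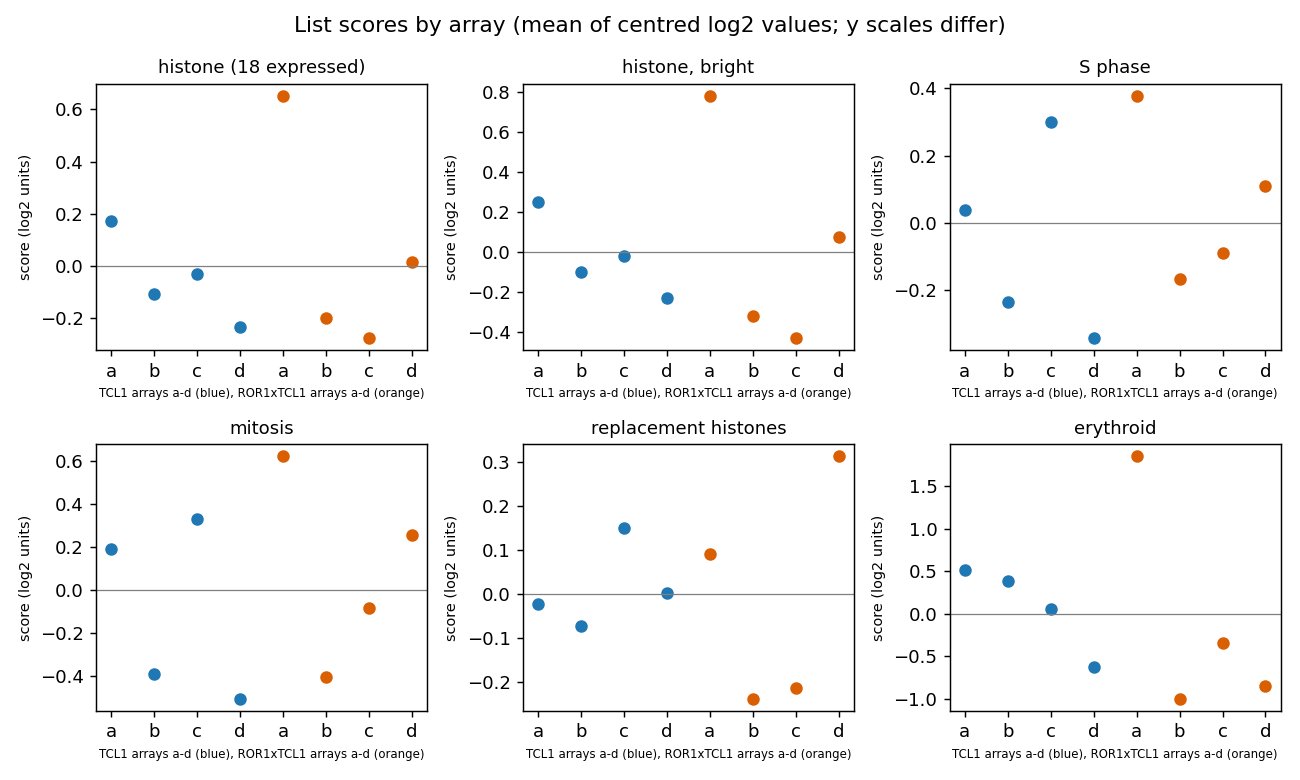
Mean centred log2 value (vertical axis, log2 units) of 6 gene lists on TCL1 arrays a to d (blue) and ROR1xTCL1 arrays a to d (orange), with 1 point per array and vertical scales that differ between panels. ROR1xTCL1 array a is highest in the histone, bright histone, S phase, mitosis and erythroid panels, and the 2 genotypes overlap in all 6.

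The bright histone genes moved together from animal to animal. The mean Pearson r over pairs of the 9 bright genes was 0.62 across the 8 arrays. It was 0.37 over the 153 pairs of the 18 expressed genes, and 0.0046 over all 8209 expressed genes. Much of this rested on 1 array: without ROR1xTCL1 array a the 2 histone values were 0.35 and 0.17. Over the other 9 expressed histone genes alone the mean r was 0.14, and -0.02 without that array. Of the 153 pairs, 124 were above 0 and 34 above 0.7. The highest r was 0.93, between Hist1h2ab and Hist1h2bb, an H2A and an H2B gene. Hist1h2bk and Hist3h2bb-ps (0.92) and Hist1h1a and Hist1h2be (0.90) followed. For comparison, the mean r was 0.81 within the mitosis list and 0.53 within the S phase list. It was 0.12 within a list of histone chaperones and 0.03 within a list of replacement histones. Near-identical copies share probe sets, and all genes share the same 8 arrays; the part of either in these correlations was not tested.

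By class, the mean r over pairs of expressed rows was 0.59 for the 4 H1 genes, 0.42 for the 4 H4 genes, 0.23 for the 6 H2B genes and 0.04 for the 3 H2A genes. Each gene was then set against the score of the other expressed histone genes. Hist1h2bk (0.95), Hist3h2bb-ps (0.91) and Hist1h1a (0.91) followed it most closely. Hist2h3c1, the only expressed H3 row, had an r of 0.89 with it. Its values were 5.95, 5.26, 5.84 and 5.41 on the TCL1 arrays and 6.90, 4.77, 5.26 and 5.97 on the ROR1xTCL1 arrays, highest on a and lowest on b of the ROR1xTCL1 group. Among the expressed genes 3 did not follow the others: Hist2h2aa1 had an r of -0.05, Hist2h2bb of -0.02 and Hist1h2bc of -0.14. The lowest pair of all was Hist1h2be and Hist2h2bb, both H2B genes, at -0.57. Hist2h2bb varied little, between 5.80 and 6.31.

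**Figure D3:**
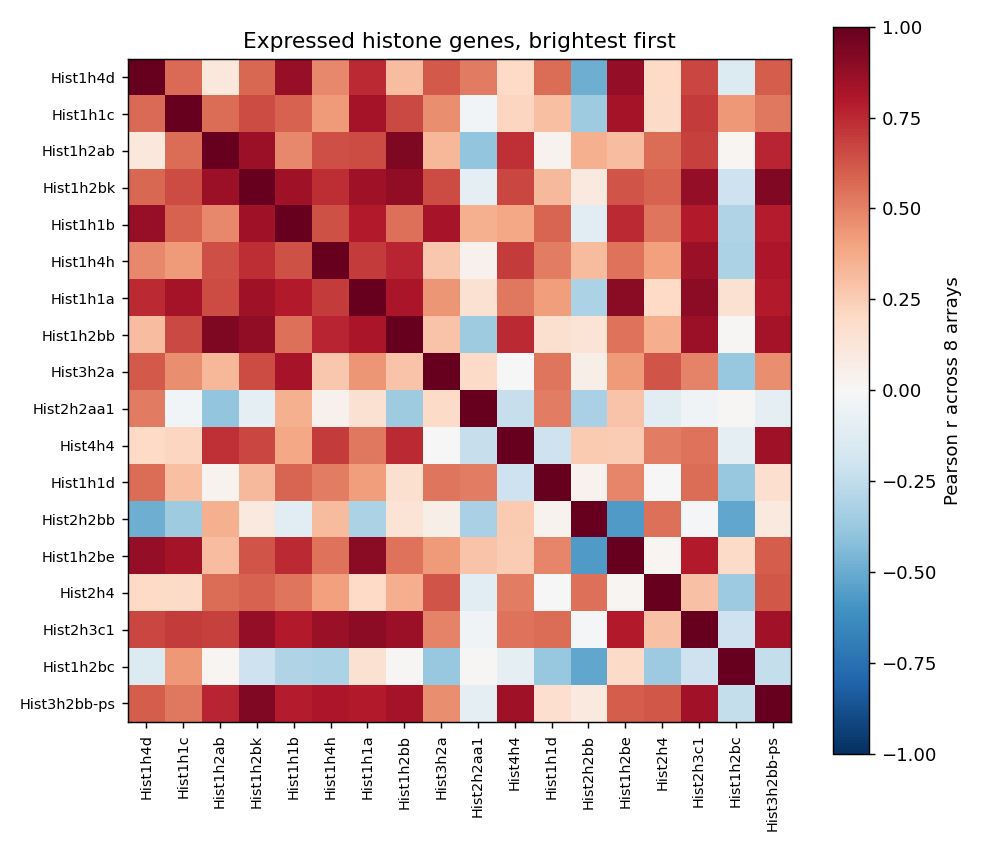
Pearson r across the 8 arrays (colour, from -1 to 1) for each pair of the 18 expressed histone genes, ordered from the brightest at the top and left. Most cells are red, 124 of 153 pairs being above 0, while the rows of Hist2h2aa1, Hist2h2bb and Hist1h2bc hold most of the blue cells beside some red ones, such as Hist2h2aa1 with Hist1h4d.

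Single probe sets gave another order of the classes. Among probe sets annotated to histone members of 1 class alone there were 193, of which 151 lay above the median of all probe sets; the mean r over pairs of these 151 was 0.34. By class it was 0.49 for H3, 0.44 for H4, 0.36 for H1, 0.35 for H2A and 0.24 for H2B. The score of the 151 probe sets was 0.30, -0.03, -0.05 and -0.33 in TCL1 replicates 1 to 4 and 0.56, -0.28, -0.19 and 0.02 in ROR1xTCL1 replicates 1 to 4. ROR1xTCL1 replicate 1 was the highest in each of the 5 classes, at 0.55 for H1, 0.56 for H2A, 0.53 for H2B, 0.64 for H3 and 0.56 for H4. TCL1 replicate 4 was the lowest for H2A and H4, at -0.46 and -0.25, and for H3, at -0.42, while ROR1xTCL1 replicate 2 was the lowest for H1 (-0.54) and H2B (-0.30).

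Slbp gave different answers in the 2 tables. Its row in the gene table was dim, under the lower quartile, with values of 4.196, 4.771, 3.919 and 3.883 on the TCL1 arrays and 3.798, 0.998, 2.261 and 3.786 on the ROR1xTCL1 arrays. All TCL1 arrays lay above all ROR1xTCL1 arrays, with 2 of the latter within 0.1 of the lowest TCL1 array and 2 far below. The platform annotation gives Slbp 13 probe sets, with means from 3.28 to 8.57, and 12 of these lay above the median of all probe sets. Put in order of size, the row was closest to probe set 4871698, at a mean distance of 0.174, and the next closest probe set was at 1.46. Probe set 4871698, the dimmest of the 13, read 4.15, 4.66, 3.82 and 3.62 in TCL1 replicates 1 to 4 and 3.82, 0.51, 1.98 and 3.70 in ROR1xTCL1 replicates 1 to 4. The other 12 probe sets had means of 4.91 to 8.57. The mean of these 12 read 7.37, 7.01, 7.13 and 6.90 in TCL1 replicates 1 to 4 and 7.66, 6.90, 7.09 and 7.32 in ROR1xTCL1 replicates 1 to 4, with full overlap of the genotypes.

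The relation of Slbp to the histone genes differed in the same way. In the gene table, the Slbp row and the histone score had an r of 0.36 and a rho of 0.33 over the 8 arrays. The expressed rows with the highest r with Slbp were Hist1h2be (0.63), Hist1h1c (0.62) and Hist3h2a (0.55), and the lowest were Hist2h2bb (-0.51), Hist4h4 (-0.20) and Hist2h2aa1 (-0.17). In the probe set table, the mean of the 12 other Slbp probe sets and the histone probe set score had an r of 0.95 and a rho of 0.93. The value was 0.81 without the 2 replicates farthest from the median score and 0.89 without ROR1xTCL1 replicate 1. With all 13 probe sets, r was 0.94 and rho 0.95. With every gene taken as the median of the probe sets annotated to it alone, r was 0.59, and with their mean 0.89. Only 8 of the 18 expressed histone rows have such probe sets, so the members of the score changed as well. Among 11170 genes with a mean over their own probe sets, 45 had a higher r with the histone probe set score than Slbp. Probe set 4871698 alone gave 0.50. By single probe set, r ranged from -0.45 for 4910182 to 0.98 for 5341895, so the 13 did not all behave alike. The mean of the 12 also had an r of 0.85 with the S phase score and of 0.92 with the mitosis score. Over the same samples the histone score had 0.75 and 0.85 with these scores. The cause of these relations was not tested.

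**Figure D4:**
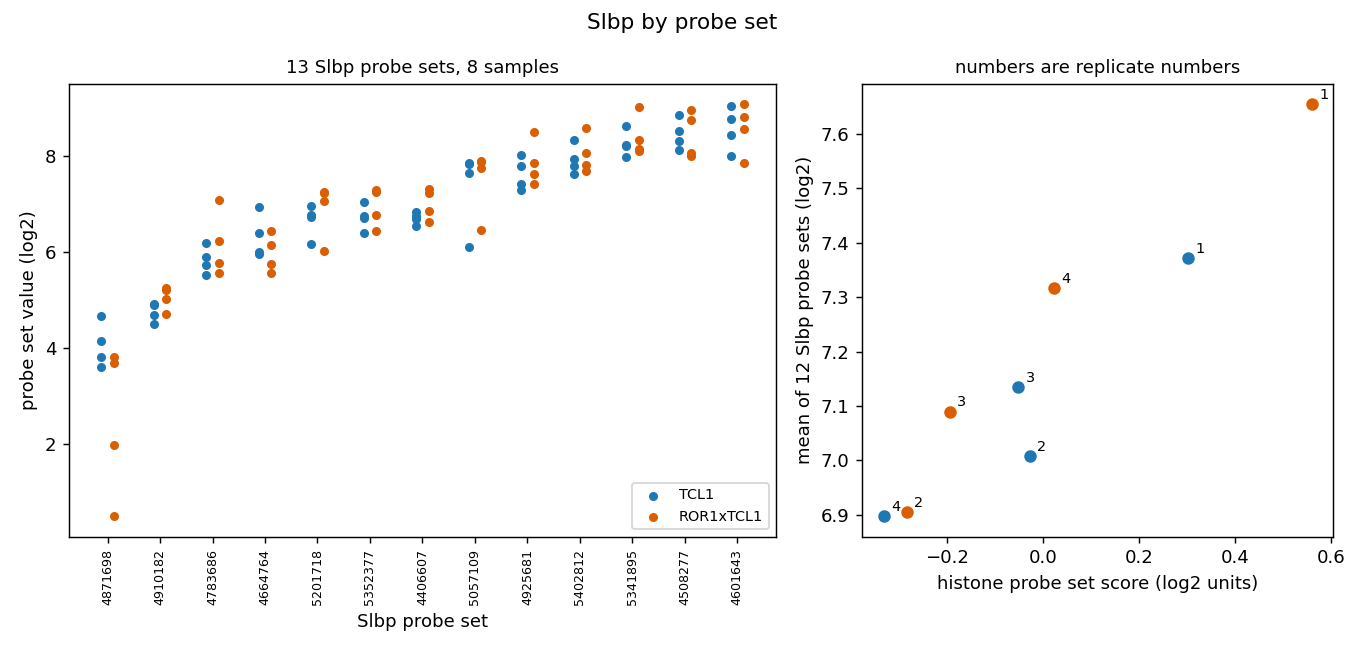
Left, log2 value (vertical axis) of the 13 Slbp probe sets in the 4 TCL1 (blue) and 4 ROR1xTCL1 (orange) samples, dimmest probe set first; right, the mean of the 12 probe sets other than 4871698 (log2) against the histone probe set score (log2 units), numbers being replicate numbers. ROR1xTCL1 samples reach far lower only for 4871698, and in the right panel the 8 points rise together at an r of 0.95.

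No histone gene was called different between the genotypes. In the limma fit over all 16419 genes, 0 of the 32 members were called at an adjusted p under 0.05, and 0.00% of all genes were called. At an unadjusted p under 0.05, 2 of 32 members passed, Slbp and Hist1h2ba, against 1.63% of all genes. Only Slbp had no overlap between the groups, a pattern seen in 1.10% of all genes, and in 0.737% with ROR1xTCL1 lower. The median log2 difference (ROR1xTCL1 minus TCL1) of the 18 expressed histone genes was 0.11, beside 0.0055 for all expressed genes. The mean was higher in ROR1xTCL1 for 13 of 18, against 51.5% of all expressed genes. Over all 31 rows it was higher for 19, against 45.9% of all genes. The values of the expressed rows rested on 1 array: without ROR1xTCL1 array a the median was -0.15 and the mean was higher for 6 of 18. The 95% interval of the median expressed histone gene reached 0.69 log2 units to either side of its difference, and these intervals were narrower for some genes, such as Hist2h2bb (-0.16 to 0.45), and wider for others, such as Hist1h1a (-0.98 to 1.13).

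**Figure D5:**
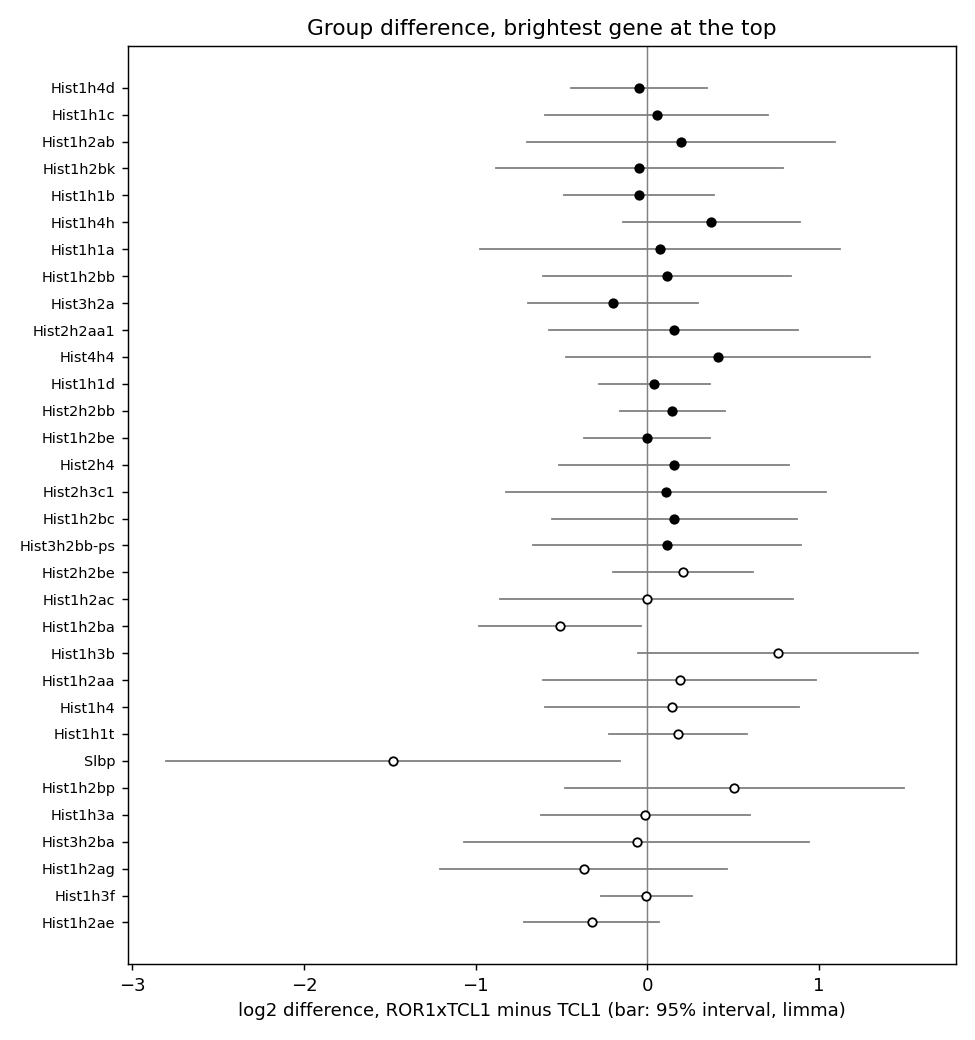
Log2 difference (ROR1xTCL1 minus TCL1, horizontal axis) of the 31 histone rows and Slbp, with 95% intervals of the limma fit, brightest row at the top. Filled points are expressed rows, and open points lie at or below the median level of all genes. The intervals of Hist1h2ba and Slbp alone leave out 0, before adjustment.

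The largest differences were mostly in dim rows. Hist1h3b had the largest difference of any histone row, 0.76 ± 0.36 (SE, limma adjusted p = 1.0), with ROR1xTCL1 arrays a, b and d above all TCL1 arrays and array c among the lower of them. Hist1h2ba, the testis H2B, read 4.67, 4.59, 4.17 and 4.41 on the TCL1 arrays and 3.69, 4.55, 3.70 and 3.85 on the ROR1xTCL1 arrays, so that only ROR1xTCL1 array b reached the TCL1 range. Its difference was -0.51 ± 0.21 (limma, unadjusted p = 0.0369, adjusted p = 1.0). Hist1h2bp (H2B) had a difference of 0.51 ± 0.44 with means under the lower quartile, and ranged from 1.999 to 4.272 within ROR1xTCL1 alone. Hist1h2ae (H2A) had a difference of -0.32 ± 0.17 at values of 1.28 to 2.03, and its mean over the 8 arrays was the lowest of all members. Among expressed rows the largest were both H4 genes. Hist4h4 read 6.37, 5.40, 5.85 and 6.33 on the TCL1 arrays and 7.51, 6.40, 6.08 and 5.61 on the ROR1xTCL1 arrays, a difference of 0.41 ± 0.39 with wide overlap. The difference of Hist1h4h was 0.37 ± 0.23 (limma, adjusted p = 1.0). The bright rows Hist1h4d (-0.05 ± 0.17), Hist1h1c (0.05 ± 0.29), Hist1h2bk (-0.05 ± 0.37) and Hist1h1b (-0.05 ± 0.19) had differences near 0, with 95% intervals reaching from -0.45 to 0.35 for Hist1h4d and from -0.88 to 0.79 for Hist1h2bk.

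The Slbp row differed by -1.48 ± 0.58 (limma, unadjusted p = 0.0323, adjusted p = 1.0), with means of 4.19 ± 0.41 in TCL1 and 2.71 ± 1.35 in ROR1xTCL1 (SD, n = 4 each). Without ROR1xTCL1 array b the difference was -0.91. The probe sets did not share this difference. Of the 13 probe sets 10 had the higher mean in ROR1xTCL1, 0 were called by limma, and 0 had no overlap between the groups. The difference was -1.56 ± 0.63 for probe set 4871698 and lay between -0.34 and 0.33 for the other 12, whose mean differed by 0.14. Averaged over all 13 probe sets, the difference was 0.01 ± 0.20 (limma, adjusted p = 1.0). Among the 13 probe sets, only 4871698 showed a difference of the size seen in the row.

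Of the 193 histone probe sets, 0 were called, as were 0.00% of all 1236087 probe sets in the limma fit. At an unadjusted p under 0.05, 1 of 193 passed, against 3.30% of all probe sets, and the same probe set was the only one without overlap, against 1.97%. It was 5528223, annotated to 12 H4 genes and named here after its values were seen; its mean was 8.03 in TCL1 and 7.31 in ROR1xTCL1, a difference of -0.71 ± 0.27 (limma, unadjusted p = 0.0218, adjusted p = 1.0). Of the 151 probe sets above the median, 84 had the higher mean in ROR1xTCL1, which was 53.3% among all such probe sets, and their median difference was 0.03.

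Sex was not labelled and was read from Y-linked genes: 3 TCL1 and 2 ROR1xTCL1 arrays read as female. Within the female arrays the histone score differed by 0.28 between the genotypes, and within the 3 male arrays by -0.10. ROR1xTCL1 array a was among the female arrays. The Slbp row differed by -1.89 within female and by -0.90 within male arrays. No test was made within the male arrays, which hold 1 TCL1 animal.

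Genes that act with the replication-dependent histones showed no called difference either: in each of the following lists 0 genes were called by limma and 0 had an unadjusted p under 0.05. Of 11 listed replacement histones, which are made outside S phase as well, 9 were measured, while H2afz and H2afy2 were not found by name. All 9 were expressed and 5 had the higher mean in ROR1xTCL1. H1f0, the linker histone of resting cells, read 6.67, 6.38, 7.88 and 6.30 on the TCL1 arrays and 6.67, 6.08, 5.96 and 9.07 on the ROR1xTCL1 arrays. It was highest on ROR1xTCL1 array d and did not follow the histone score, with an r of 0.19. The score of the 9 replacement histones had an r of 0.44 and a rho of 0.57 with the histone score. This r was 0.85 without the 2 arrays farthest from the median histone score and 0.55 without ROR1xTCL1 array a. The other largest differences were -0.19 for H1fx, -0.17 for H3f3b, an H3.3 gene, and -0.09 for Cenpa, the H3 of centromeres.

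Of 20 listed genes of histone message processing, 16 were measured, while Npat, Cpsf3, Ncbp1 and Gon4l were not found by name. Of the 16, 14 were expressed and 11 had the higher mean in ROR1xTCL1. Their score stayed between -0.04 and 0.07 on all 8 arrays and had an r of -0.10 with the histone score. The mean r within the list was -0.02, so these genes did not move together and their average says little of single genes. The largest differences were 0.32 ± 0.26 for Ncbp2, a subunit of the cap-binding complex, and -0.22 ± 0.17 for Lsm10, a subunit of the U7 particle that guides the cut of the histone message. Casp8ap2 (FLASH), which acts in the same cut, differed by 0.21 ± 0.15. Cpsf3l, a different gene from the missing Cpsf3, differed by -0.11 ± 0.11.

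Of 21 listed histone chaperones and their partners, 20 were measured, while Ubn1 was not found by name. All 20 were expressed and 14 had the higher mean in ROR1xTCL1. Their score had an r of 0.66 with the histone score, or 0.61 without the 2 farthest arrays and 0.46 without ROR1xTCL1 array a. Asf1b, which hands H3 and H4 to the replication fork in dividing cells, read 8.515, 7.660, 8.449 and 7.950 on the TCL1 arrays and 8.998, 8.165, 8.098 and 8.702 on the ROR1xTCL1 arrays. It was highest on ROR1xTCL1 array a and had an r of 0.80 with the histone score, and its difference was 0.35 ± 0.26. Hjurp, the chaperone of centromeric H3, differed by 0.36 ± 0.30, Nfkbil2 (also called Tonsl) by -0.25 ± 0.20, and Hat1, which acetylates new H4, by 0.21 ± 0.15.

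The S phase score had an r of 0.76 and a rho of 0.74 with the histone score, and 0.71 without the 2 farthest arrays. The mitosis score had an r of 0.80 and a rho of 0.76, and 0.71 without them. Of 29 listed S phase genes 26 were measured, while Pcna, Rrm2 and Lig1 were not found by name. Of 20 listed mitosis genes 19 were measured, while Cenpf was not found. Among the 26 S phase genes 21 had the higher mean in ROR1xTCL1, with a median difference of 0.09, and among the 19 mitosis genes 18, with a median of 0.21. Without ROR1xTCL1 array a, the difference in the S phase score fell from 0.12 to 0.01 and that in the mitosis score from 0.19 to 0.02. Members of these lists move together, so their counts do not add up like independent genes. The largest S phase differences were 0.49 ± 0.34 for Uhrf1, 0.37 ± 0.37 for Ccne2 (cyclin E2), 0.28 ± 0.26 for Cdc6 and 0.25 ± 0.17 for Pola1. Ccne2 followed the histone score with an r of 0.87 while Uhrf1, the maintenance factor of DNA methylation, had an r of -0.004. In the mitosis list they were 0.33 ± 0.29 for Birc5, 0.32 ± 0.29 for Top2a, 0.31 ± 0.41 for Ccnb1 and 0.30 ± 0.29 for Kif11. Birc5 (survivin) was highest on ROR1xTCL1 array a and had an r of 0.89 with the histone score.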

How the data were processed

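Per the labels, the deposited probe set values are log2 RMA values made by the authors with oligo, and the submitters' processing notes name R 2.15.1. The scale of the deposited gene table is not stated, and their range led to reading them as log2. The series text names the Exon Array Computational Tool; no source used here says how probe sets became genes. Of 16495 rows, those with only a number as name (4) were dropped, and 72 repeated names were averaged. 14 histone names end in blanks, whose meaning is not stated. Names were matched to RefSeq for 31 of the 32 members; Hist1h4 names no single gene.

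The genotypes were tested over all 8 arrays with limma 3.58.1 under R 4.3.3 (lmFit, eBayes, 2-sided), with Benjamini-Hochberg adjustment over the whole table at 0.05, and tested on simulated data first. Array medians were 5.03 to 5.09; the number of arrays limits the precision. Scores, lists and correlations got no test. The members and lists were chosen with earlier results of these data known. Named with values were Slbp, all bright rows, rows next to a level boundary, the 5 expressed rows of largest SD, the 5 rows of largest difference and of smallest p, and 3 at each end of the correlation with Slbp; from the other lists the 4 largest differences, and the 5 genes most like the histone score. Alternatives covered gene values made from probe sets, normalization, a filter on dim genes, eBayes settings, sex, the level called expressed, repeated names, the replicate block and each array left out; 5 more were chosen after seeing the data.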

Additional observations from a re-analysis of the deposited data

Results flagged for a closer look

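In 66 groups of 4 arrays (32 members in 2 genotypes and the histone score), 3 held an array whose gap to the nearest other as a share of the group's range exceeded Dixon's 95% critical value; chance gives about 1 in 20 groups. For Hist1h4d, TCL1 array d read 11.954, below the nearest TCL1 array at 12.42. For Hist2h2aa1, TCL1 array d read 5.34, below the nearest at 6.59. For Hist3h2bb-ps, a pseudogene of the H2B class, ROR1xTCL1 array a read 6.655, above the nearest at 5.13.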

How the results depend on the processing

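In every alternative that gave a value, 0 members were called. The Slbp difference turned from -1.48 to 0.00783 with gene values as the mean of probe sets, to 0.20 with their median, and to 0.14 over 12 probe sets (added after seeing the data); with each array left out it was -1.84 to -0.91. Slbp against the histone score moved from 0.36 to 0.886 with probe set means and 0.590 with their medians, and to 0.941 and 0.951 with histone probe sets and 13 or 12 Slbp probe sets (added); leave-one-out values were 0.25 to 0.53. The mean pairwise correlation moved from 0.37 to 0.622 over bright genes, and was 0.167 to 0.414 leave-one-out, the lowest without ROR1xTCL1 array a. The median difference of the expressed genes was -0.15 to 0.21 leave-one-out and changed sign without that array. The labels state no pairing, and the numbers were not taken to pair the mice. Same-numbered samples of the 2 genotypes correlated at 0.23, -0.01, 0.22 and 0.11 over probe set means, and differently numbered ones at -0.23 to 0.32. These values cannot decide whether the numbers pair the mice. With the replicate block the Slbp difference was 0.00783 ± 0.16, its r with the histone score 0.698 and the Hist1h1b difference 0.14, and 0 members were called. The block lowered the SE for some genes (Hist1h1a, 0.41 to 0.21) and raised it for others (Hist3h2a, 0.26 to 0.30).

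Of 342 values of single histone genes under alternatives, 36 changed sign, all for differences that were not called: Hist1h4d (0.0738 with quantile normalization, 0.0142 in female arrays), Hist1h2be (0.011 centred on array medians), Hist1h2bk (0.0535 with sex as a covariate, 0.41 in female arrays), Hist1h1b (0.17 in female arrays, 0.14 with probe set means and medians), and in female arrays Hist1h1c (-0.034), Hist3h2a (0.0873) and Hist1h1t (-0.006). Leaving out each array gave -0.173 to 0.0567 for Hist1h4d, -0.15 to 0.23 for Hist1h1c, -0.212 to 0.0308 for Hist1h1b, -0.35 to 0.37 for Hist1h1a, -0.14 to 0.56 for Hist1h2ab, -0.44 to 0.21 for Hist1h2bk, -0.18 to 0.32 for Hist1h2bb, -0.11 to 0.12 for Hist1h2be, -0.19 to 0.30 for Hist2h2aa1, -0.28 to 0.43 for Hist2h3c1 and -0.28 to 0.25 for Hist3h2bb-ps. The cause of these changes was not tested. Probe sets annotated to 1 gene alone exist for 17 of the 32 members, 8 of them expressed histone rows. Histone scores made from them thus rest on fewer members than the 18 of the main score. The filter on dim genes leaves no value for Slbp.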

Other observations

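Among the 8191 other expressed genes, those whose 8 values were most like the histone score were Cmpk2 (r = 0.99), Chst11 (0.97), Gabarapl1 (0.97), Rtp4 (0.97) and Aqp9 (0.96); this is a description over 8 arrays. Cmpk2, a mitochondrial nucleotide kinase induced by interferon, read 6.52, 6.19, 6.14 and 5.89 on TCL1 arrays a to d and 7.23, 5.85, 5.79 and 6.21 on ROR1xTCL1 arrays a to d. Its r was still 0.97 without ROR1xTCL1 array a. Chst11 then had 0.96, Gabarapl1 0.92 and Aqp9 0.91. Rtp4, another interferon-induced gene, had the lowest of these values, 0.86.

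Rows whose deposited names end in blanks were dimmer: the 14 such histone rows had a median level of 4.40 and 6 of them were expressed, against 6.15 and 12 expressed among the 17 histone rows without blanks. In the whole table the medians were 4.68 for 2295 genes with and 5.15 for 14124 genes without blanks.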
